A study of Mus musculus with 155 samples.

Results

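Oligodendrocyte precursor cells (OPCs) are recognised by a small set of genes, and 10 of these, Pdgfra, Cspg4, Olig1, Olig2, Sox10, Nkx2-2, Gpr17, Ptprz1, Lhfpl3 and Bcas1, were followed here through the gene counts of a mouse embryonic stem cell (ESC) system that expresses a mutant histone. They were chosen by name, as established markers or regulators of the OPC state, but with earlier results of these data known. Of the 10 genes, 9 were found among the 55471 genes of the deposited tables. Lhfpl3 could not be matched to a gene of the tables and was not analysed here.

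OPCs arise in the ventral neural tube, where Sonic hedgehog signalling switches on the transcription factors Olig2, Olig1 and Nkx2-2, and Sox10 then locks cells into the oligodendrocyte lineage. Dividing OPCs carry Pdgfra, the receptor through which PDGF-A keeps them proliferating, together with the proteoglycan NG2 (encoded by Cspg4) and the receptor phosphatase Ptprz1. Gpr17 and Bcas1 mark cells that leave this state and begin to differentiate, before the myelin genes come on. Several of these genes are used by other cells as well: Pdgfra by fibroblasts, mesoderm and primitive endoderm, Cspg4 by pericytes and Sox10 by neural crest and Schwann cells. OPCs are of interest with H3.3K27M because they are held to be the cell of origin of diffuse midline glioma, the tumour that carries this substitution of lysine 27 by methionine in histone H3.3.

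All cells were KH2 mouse ESCs or their derivatives with 1 extra copy of H3.3, tagged with SNAP and HA, under a doxycycline (Dox) inducible promoter. The copy was wild type (WT-H3.3), H3.3K27M or, as a second mutant, H3.3K27L, and every library came from Dox-treated cells, so the controls also carried induced H3.3. The OPC table held 4 libraries, 1 each of WT-H3.3 and H3.3K27M at 24 and 72 h of Dox. The RA table held 6 libraries of cells grown with retinoic acid (RA), labelled as ES-derived neural progenitor cells, 1 for each of the 3 lines at 24 and 72 h. The ESC table held 32 libraries, 8 of each line and 8 of WT-H3.3 cells given GSK343, which inhibits EZH2, the enzyme of PRC2. These 8 were 2 replicates at each of 4, 8, 24 and 72 h of Dox. OPCs were made through embryoid bodies exposed to RA and purmorphamine, a Sonic hedgehog pathway agonist, and no sorting step is described. The number of clones behind each line is not given in the sources used here. Differences between lines may therefore come from the mutation, the clone or the culture, which cannot be told apart. Both Dox times of a line stood in for replicates in OPCs and RA-treated cells, so p-values measure the spread between these libraries, which may be partly technical. Total counts ran from 7499258 to 12387113 in OPCs, from 2239137 to 22269533 in RA-treated cells and from 68378 to 21161392 in ESCs, where the lowest total belonged to H3.3K27L at 72 h, replicate 2. Levels are given as CPM, the counts of a gene scaled to a common library total after TMM normalization, and each gene is compared between libraries, while the levels of different genes are not ranked.

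By the annotation of NCBIM37 (mm9), the lineage transcription factors lie on chromosome 16 (Olig2 at 91225795 to 91228922 and Olig1 at 91270014 to 91272184, both on the + strand and 41.1 kb apart), chromosome 15 (Sox10 at 78985343 to 78994920, - strand) and chromosome 2 (Nkx2-2 at 147003282 to 147019979, - strand). The surface proteins lie on chromosome 5 (Pdgfra at 75548316 to 75594229, + strand), chromosome 9 (Cspg4 at 56712911 to 56747677, + strand) and chromosome 6 (Ptprz1 at 22825502 to 23002916, + strand). Bcas1 lies on chromosome 2 at 170172491 to 170253345, - strand. Nkx2-2, Gpr17 and Bcas1 overlap annotated genes of the opposite strand (Nkx2-2as and 6430503K07Rik, Lims2, and 1700040N02Rik and Gm14259, respectively), and whether the counting used strand is not given in the sources used here. Reads of these 3 genes and of their antisense partners may therefore be mixed.

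The promoter windows below, the 250 bases before the gene start in RefSeq on GRCm38.p6, are shown for the member with the strongest fall between the OPC lines (Pdgfra) and for 3 that rose (Cspg4, Olig2 and Nkx2-2). Windows were found for 5 of the 9 members, the fifth being Ptprz1. Capitals mark the E-box CANNTG, which basic helix-loop-helix proteins such as Olig2 bind, and ACAAT on either strand, the core that SOX proteins bind. Pdgfra lies at chr5:75152001-75152250 (+), Cspg4 at chr9:56864854-56865103 (+), Olig2 at chr16:91225300-91225549 (+) and Nkx2-2 at chr2:147186403-147186652 (-), in coordinates of GRCm38.p6 that cannot be set beside the mm9 positions above.
Pdgfra: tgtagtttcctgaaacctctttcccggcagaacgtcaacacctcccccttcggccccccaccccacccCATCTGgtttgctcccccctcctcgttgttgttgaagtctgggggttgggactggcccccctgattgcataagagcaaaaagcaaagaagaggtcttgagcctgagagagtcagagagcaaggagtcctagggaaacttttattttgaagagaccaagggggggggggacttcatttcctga
Cspg4: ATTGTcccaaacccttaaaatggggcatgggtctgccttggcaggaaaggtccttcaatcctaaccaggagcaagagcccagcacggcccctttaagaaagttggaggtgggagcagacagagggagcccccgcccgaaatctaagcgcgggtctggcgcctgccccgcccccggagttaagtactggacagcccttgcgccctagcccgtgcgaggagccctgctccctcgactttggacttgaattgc
Olig2: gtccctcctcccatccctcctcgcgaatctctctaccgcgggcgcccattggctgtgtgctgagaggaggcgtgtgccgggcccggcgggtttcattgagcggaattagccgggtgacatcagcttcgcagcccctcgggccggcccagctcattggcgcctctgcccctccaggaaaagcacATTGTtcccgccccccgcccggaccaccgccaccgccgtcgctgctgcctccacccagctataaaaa
Nkx2-2: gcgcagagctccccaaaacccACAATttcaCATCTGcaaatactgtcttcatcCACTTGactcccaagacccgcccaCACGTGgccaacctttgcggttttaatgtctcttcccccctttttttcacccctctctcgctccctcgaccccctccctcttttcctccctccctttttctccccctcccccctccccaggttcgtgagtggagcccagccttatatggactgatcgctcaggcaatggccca
The Pdgfra window held 1 E-box and 0 SOX cores, and the Nkx2-2 window held 3 E-boxes and 1 SOX core. The Cspg4 and Olig2 windows held 0 E-boxes and 1 SOX core each, on the minus strand of the gene in both. No match overlapped another. Among 32851 promoter windows of the same length, 66.2% held an E-box and 27.7% a SOX core, so these letters are common and the matches are a description only.

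The comparison of H3.3K27M with WT-H3.3 OPCs asked whether the mutant histone goes with a different level of the genes that define the cell. The lineage factors Olig1, Olig2 and Nkx2-2, the surface proteins NG2 and Ptprz1 and the differentiation marker Bcas1 were 2.32-fold to 9.20-fold higher in H3.3K27M OPCs. Pdgfra and Sox10, in contrast, were 27.6-fold and 7.38-fold lower, so the OPC markers did not move as a unit. Of the 8 members tested, 8 were called (edgeR's quasi-likelihood test, adjusted p under 0.05 and over 2-fold), 6 higher and 2 lower, where 27.9% of the 12467 genes tested were called, 12.9% higher and 15.0% lower. The libraries of the lines did not overlap for any of the 8, as for 76.6% of the genes tested. The median log2 fold change was 1.57 over these 8 members and 0.00063 over all genes tested. Pdgfra and Sox10 passed the filter on low counts only through the WT-H3.3 libraries and Gpr17 did not pass it, so these counts describe the members that were tested.

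**Figure D1:**
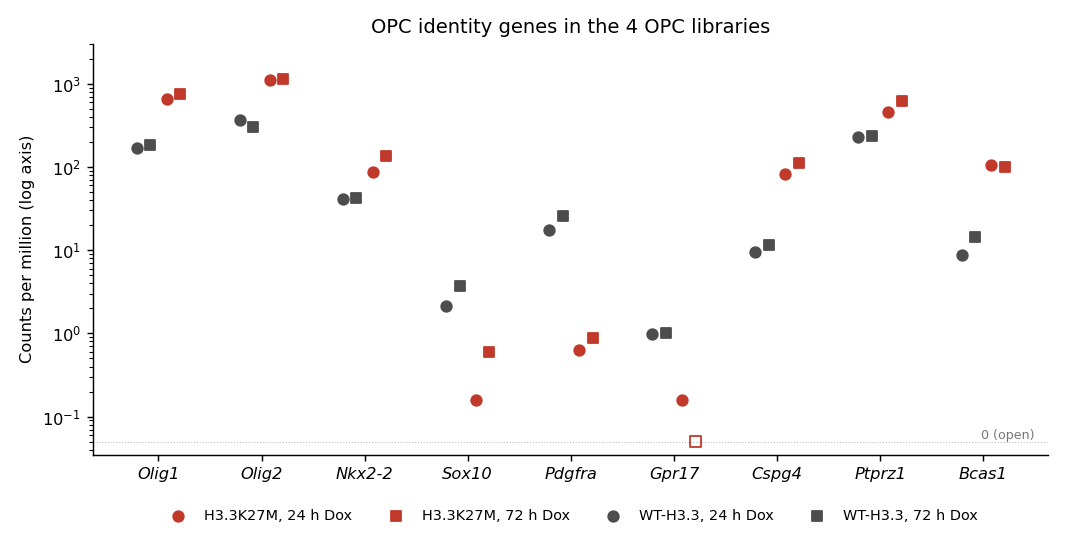
Level of the 9 members in each of the 4 OPC libraries, in CPM on a log axis, with WT-H3.3 in grey and H3.3K27M in red, circles for 24 h and squares for 72 h of Dox, and a library at 0 drawn as an open symbol on the dotted line. Red symbols lie above grey ones for Olig1, Olig2, Nkx2-2, Cspg4, Ptprz1 and Bcas1, and below them for Sox10, Pdgfra and Gpr17.

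Olig2, the basic helix-loop-helix factor needed to specify OPCs, stood at 368 and 303 CPM in WT-H3.3 OPCs at 24 and 72 h of Dox and at 1098 and 1141 CPM in H3.3K27M OPCs. Both mutant libraries lay above both WT-H3.3 libraries, and the log2 fold change was 1.73 (SE 0.14, adjusted p = 2.58e-06). Olig1, its neighbour and close relative, which promotes maturation of oligodendrocytes, was at 169 and 182 CPM in WT-H3.3 and at 655 and 758 CPM in H3.3K27M OPCs. The rise was 2.0 on the log2 scale (SE 0.14, adjusted p = 9.8e-07). Of the other genes tested within 500 kb of Olig2, 18 in number, 2 were called higher, Olig1 among them, and 4 lower, where 27.9% of all genes tested were called. The median log2 fold change of the genes tested on chromosome 16 was -0.14.

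Nkx2-2, a homeodomain factor of the most ventral progenitors that also times oligodendrocyte differentiation, was at 41.3 and 41.97 CPM in WT-H3.3 OPCs and at 86.7 and 135 CPM in H3.3K27M OPCs. The rise was 2.10-fold at 24 h and 3.21-fold at 72 h, or 1.40 on the log2 scale (SE 0.19, adjusted p = 0.000136). The call was lost in the fit of 16 libraries of 3 cell states, at nearly the same log2 fold change (1.40, adjusted p = 0.08). Sox10, the SOX factor that maintains the lineage and drives myelin genes, was low in all 4 libraries, with 22 and 33 counts in WT-H3.3 OPCs (2.14 and 3.72 CPM) and 1 and 4 counts in H3.3K27M OPCs (0.158 and 0.594 CPM). The summed counts gave a WT-H3.3 to H3.3K27M ratio of 7.49 (exact 95% interval 3.02 to 24.0, for counting error only). The fitted log2 fold change was -2.88 (SE 0.65, adjusted p = 0.00343), and this call was also lost in the fit of 16 libraries (-2.90, adjusted p = 0.11). Sox10 was thus the lineage factor with the fewest counts behind its value.

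**Figure D2:**
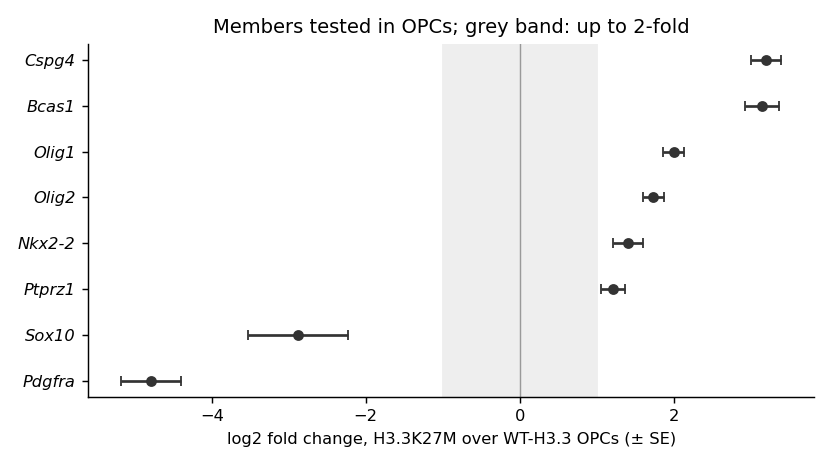
Log2 fold change of the 8 tested members in H3.3K27M over WT-H3.3 OPCs, with bars of 1 SE and a grey band for changes of up to 2-fold. The values run from -4.79 for Pdgfra to 3.20 for Cspg4, and 6 of the 8 lie to the right of the band.

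Pdgfra, the PDGF-A receptor and the usual surface marker for isolating OPCs, held 178 and 227 counts in WT-H3.3 OPCs (17.3 and 25.6 CPM) but 4 and 6 counts in H3.3K27M OPCs (0.634 and 0.890 CPM). It was lower in both mutant libraries, at 0.0366 of the WT-H3.3 level at 24 h and 0.0348 at 72 h. The log2 fold change was -4.79 (SE 0.39, adjusted p = 3.33e-06), and the summed counts gave a WT-H3.3 to H3.3K27M ratio of 27.6 (exact 95% interval 14.8 to 58.0, for counting error only). It ranked 203rd among all genes that were lower.

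Cspg4, the core protein of NG2, moved the opposite way, from 9.52 and 11.4 CPM in WT-H3.3 OPCs to 82.1 and 111 CPM in H3.3K27M OPCs. The log2 fold change was 3.20 (SE 0.20, adjusted p = 5.5e-07), which placed it 86th among all genes that were higher. Pdgfra and Cspg4, which mark the same cells in the brain, were thus inverse between these lines, and this held at each Dox time. Ptprz1, a receptor phosphatase that restrains differentiation, rose from 226 and 234 CPM to 454 and 624 CPM (log2 fold change 1.22, SE 0.16, adjusted p = 8.74e-05). This was the smallest of the 6 rises, and without the H3.3K27M library of 72 h it fell to 0.98, just under 2-fold.

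Bcas1, a protein of early differentiating and newly myelinating oligodendrocytes, was at 8.75 and 14.6 CPM in WT-H3.3 OPCs and at 106 and 100.2 CPM in H3.3K27M OPCs. Its rise was 12.1-fold at 24 h and 6.88-fold at 72 h, or 3.15 on the log2 scale (SE 0.22, adjusted p = 1.14e-06). Gpr17, a receptor of cells committed to differentiate, was close to absent (mm9 chromosome 18, 32102651 to 32109290, - strand), with 10 and 9 counts in WT-H3.3 OPCs and 1 and 0 counts in H3.3K27M OPCs. It did not pass the filter on low counts, and the summed counts gave a WT-H3.3 to H3.3K27M ratio of 12.9 (exact 95% interval 2.06 to 538, for counting error only). Bcas1 was thus higher in the H3.3K27M line. Gpr17 had lower counts there but did not enter the main test, so a contrast between these 2 markers rests on few counts.

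Checked against their label, both OPC lines carried Olig1, Olig2, Nkx2-2, Ptprz1 and Cspg4 in every library, whereas Gpr17 and Sox10 were low throughout and Pdgfra was low in H3.3K27M OPCs. The summed level of the 9 members was 818 to 844 CPM in WT-H3.3 and 2482 to 2870 CPM in H3.3K27M OPCs. In such bulk cultures, fewer cells of a type and less RNA per cell cannot be told apart.

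Between 24 and 72 h of Dox, 0 members were called in OPCs, where 0.184% of all genes were (23 genes), and 4 members had an unadjusted p under 0.05, as did 1657 of the 12467 genes tested. Nkx2-2 (log2 fold change 0.36, SE 0.14, adjusted p = 0.14), Ptprz1 (0.27, SE 0.11, adjusted p = 0.19), Cspg4 (0.38, SE 0.16, adjusted p = 0.23) and Pdgfra (0.61, SE 0.27, adjusted p = 0.26) were each higher at 72 h in both lines. Olig2 was lower at 72 h in WT-H3.3 OPCs and slightly higher in H3.3K27M OPCs. The difference between lines was thus larger than that between Dox times for each of the 8 tested members. The sample names give 72 h as replicate 1 and 24 h as replicate 2 (the column names of the table differ), so Dox time and replicate cannot be told apart.

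Other genes of the pathways around the members were described with lists written from general knowledge. The counts of each list, here and in the paragraphs on OPC lines that follow, stand beside a share over all genes. Of the 12467 genes tested, 12.9% were higher and 15.0% lower in H3.3K27M OPCs. Genes almost absent from either line passed the filter on low counts only through the other line, which fixes their direction. Pdgfb, Pdgfd and Pdgfrb below are examples, so the list counts are given as a description. PDGF ligands activate Pdgfra and its relative Pdgfrb, and of 5 such genes tested 0 were higher and 3 were lower in H3.3K27M OPCs, with a median log2 fold change of -2.48. Pdgfrb, the receptor of pericytes, was at 20.7 and 34.1 CPM in WT-H3.3 OPCs and at 0.951 and 0.297 CPM in H3.3K27M OPCs (log2 fold change -5.45, SE 0.46). The ligand Pdgfb stood at 6.51 and 5.64 CPM in WT-H3.3 OPCs and at 0 in both H3.3K27M libraries, and Pdgfd fell by 2.48 on the log2 scale (SE 0.64). Both PDGF receptors were thus lower in the mutant line.

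Sonic hedgehog patterns the ventral progenitors from which OPCs arise, and of 14 genes tested from this pathway 5 were higher and 3 lower, with a median of 0.39. Shh itself, the ligand, was at 76.2 and 46.0 CPM in WT-H3.3 and at 0.951 and 0 CPM in H3.3K27M OPCs (log2 fold change -7.01, SE 0.50). Its co-receptor Gas1 moved the other way (log2 fold change 3.24, SE 0.21). Nkx6-2, a homeodomain factor of ventral progenitors and later of oligodendrocytes, fell by 4.87 on the log2 scale (SE 0.31). Olig2 and Nkx2-2 were thus higher where Shh was lower. Nkx6-2 and Foxa2 (-2.49, SE 0.20), a factor of the hedgehog list, fell with Shh, so the ventral factors did not share a direction.

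Among 31 tested genes of a list of other OPC genes, 15 were higher and 4 lower, with a median log2 fold change of 0.84. Sox8, a relative of Sox10 that acts with it in the lineage, rose from 34.5 and 27.8 CPM to 159 and 144 CPM (log2 fold change 2.28, SE 0.15), so these SOX factors differed in direction. Id4, an inhibitor of basic helix-loop-helix factors that delays differentiation, went from 77.6 and 89.5 CPM to 2.85 and 5.05 CPM (log2 fold change -4.40, SE 0.24). Of 11 tested genes of committed precursors 3 were higher (12.9% of all genes) and 1 lower (15.0%), with a median of 0.26. These included Fyn, a kinase of the myelination programme (1.45, SE 0.15), Mycl, a MYC family factor (2.0, SE 0.25), and the signalling ligand Bmp4 (-6.09, SE 0.52).

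Myelin genes went the other way on balance, with 1 of 14 tested higher and 6 lower and a median log2 fold change of -0.76. The summed level of the list was 428 to 435 CPM in WT-H3.3 and 285 to 313 CPM in H3.3K27M OPCs. Mag, a defining myelin gene, was at 0 in all 4 libraries. The 3 with the lowest adjusted p, Lpar1 (-4.46, SE 0.23), Gsn (-1.11, SE 0.17) and Car2 (-2.14, SE 0.19), are also used outside oligodendrocytes.

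Markers of other cell types differed between the OPC lines as well. Of 18 tested genes of fibroblasts and pericytes 13 were lower and 3 higher, with a median log2 fold change of -4.48, and their summed level was 895 to 1013 CPM in WT-H3.3 and 229 to 262 CPM in H3.3K27M OPCs. The collagens Col1a1 (-5.59, SE 0.23) and Col3a1 (-6.01, SE 0.22) and the matrix proteoglycan Dcn (-5.50, SE 0.22) were among them, and Tagln was at 0 in both H3.3K27M libraries. All 9 tested genes of primitive endoderm were lower (median -3.71), with a summed level of 3318 to 3735 CPM against 836 to 1052 CPM. Examples were the factor Foxa2 (-2.49, SE 0.20), which is also in the hedgehog list, and the laminins Lama1 (-4.72, SE 0.29) and Lamb1 (-2.63, SE 0.14). Both cell types can express Pdgfra and pericytes Cspg4. Pdgfra fell together with both lists while Cspg4 rose, and the part of these lists in the results was not tested.

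**Figure D3:**
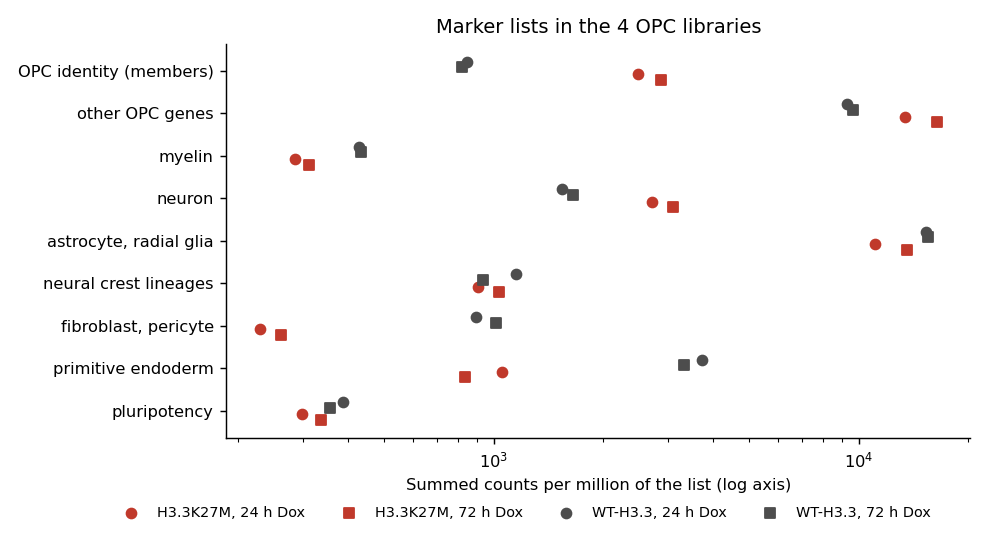
Summed CPM of each marker list in the 4 OPC libraries, on a log axis, with WT-H3.3 in grey and H3.3K27M in red, circles for 24 h and squares for 72 h of Dox. The members, other OPC genes and neuronal genes sum higher in H3.3K27M OPCs. Fibroblast and pericyte, primitive endoderm, myelin, astrocyte and radial glia, and pluripotency genes sum lower.

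Sox10 is shared with neural crest and its derivatives, and of 11 tested genes of these lineages 6 were lower and 1 higher (median -1.99), including the crest factor Snai2 (-4.38, SE 0.37), the Schwann cell factor Egr2 (-5.66, SE 0.33) and the endothelin receptor Ednrb (-1.99, SE 0.15). Their summed level overlapped between lines (934 to 1154 CPM in WT-H3.3 and 908 to 1032 CPM in H3.3K27M OPCs). The part of this list in the Sox10 result was not tested. Of 17 tested neuronal genes 5 were higher and 8 lower (median -0.67), yet their summed level was higher in H3.3K27M OPCs (2725 to 3110 against 1541 to 1652 CPM). Stmn2 (-7.59, SE 0.30), Syt1 (4.25, SE 0.22) and Nefm (-2.63, SE 0.18) show both directions. Of 19 tested genes of astrocytes and radial glia, 2 were higher (12.9% of all genes) and 6 lower (15.0%), with a median of 0.06. Gfap was at 37.3 and 26.3 CPM in WT-H3.3 and at 0.317 and 0 CPM in H3.3K27M OPCs. The intermediate filament Vim (-1.92, SE 0.15) and the factor Id3 (-1.94, SE 0.14) were also lower. The 2 genes called higher are not among those named. The summed level of this list was 15347 to 15480 CPM in WT-H3.3 and 11089 to 13572 CPM in H3.3K27M OPCs.

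Of 6 tested pluripotency genes 4 were lower and 1 higher (median -2.79), the latter being Esrrb (3.25, SE 0.29), while Klf4 (-3.93, SE 0.18) and Tbx3 (-4.97, SE 0.33) were lower. Pou5f1, which defines ESCs, was at 0 in all 4 OPC libraries. From the lists of motor neurons and microglia 1 gene each was tested, Prph (-4.14, SE 0.68) and Tmem119 (-3.15, SE 0.60), both lower. In H3.3K27M OPCs these whole lists summed to 0.594 to 1.27 CPM and 0.445 to 0.475 CPM. Both genes thus passed the filter on low counts only through the WT-H3.3 libraries, and no direction is read from them.

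The same genes were then followed in the cells before and beside the OPC state. In WT-H3.3 cells, 7 of 8 tested members were higher in OPCs than in ESCs, where 29.7% of 15740 genes were higher and 63.9% called in all. Cspg4, Sox10, Nkx2-2 and Ptprz1 did not pass the filter on low counts in the ESC table and entered this fit through the OPC libraries where they were high, so the count is fixed in part by the filter and is given as a description. Of the 4 members that passed it in ESCs as well, Olig1, Olig2 and Pdgfra were higher. Ptprz1 was 0.612 to 1.01 CPM in the 4 WT-H3.3 ESC libraries of 24 and 72 h and 226 and 234 CPM in WT-H3.3 OPCs (log2 fold change 7.86, SE 0.37). Olig2 (3.86, SE 0.30) and Olig1 (3.81, SE 0.33) rose from levels that ESCs already showed, 18.0 to 24.9 CPM for Olig2 and 8.62 to 13.7 CPM for Olig1. Nkx2-2 held 2 counts over those 4 ESC libraries and 41.3 and 41.97 CPM in WT-H3.3 OPCs. Pdgfra (4.24, SE 0.42), Cspg4 (4.67, SE 0.56) and Sox10 (3.38, SE 0.90) were higher as well.

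Bcas1 was the exception, at 7.26 to 8.997 CPM in WT-H3.3 ESCs and 8.75 and 14.6 CPM in WT-H3.3 OPCs (0.36, SE 0.33, adjusted p = 0.33). In the H3.3K27M line, 6 of 8 were higher in OPCs than in ESCs, where 27.2% of all genes were higher and 61.6% called, and the same limit holds. Nkx2-2 had 0 counts and Cspg4 3 counts over the 4 H3.3K27M ESC libraries of 24 and 72 h. Of the 4 members that passed the filter in ESCs, Olig1, Olig2 and Bcas1 were higher. Bcas1 rose by 3.98 on the log2 scale (SE 0.32), whereas Pdgfra (-0.68, SE 0.59, adjusted p = 0.31) and Sox10 (0.19, SE 1.24, adjusted p = 0.90) were not called. Pdgfra ran from 0.309 to 1.51 CPM in those H3.3K27M ESC libraries, so its 0.634 and 0.890 CPM in H3.3K27M OPCs lay within the ESC range. Cell state, count table and possibly the library kit cannot be told apart in these comparisons.

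**Figure D4:**
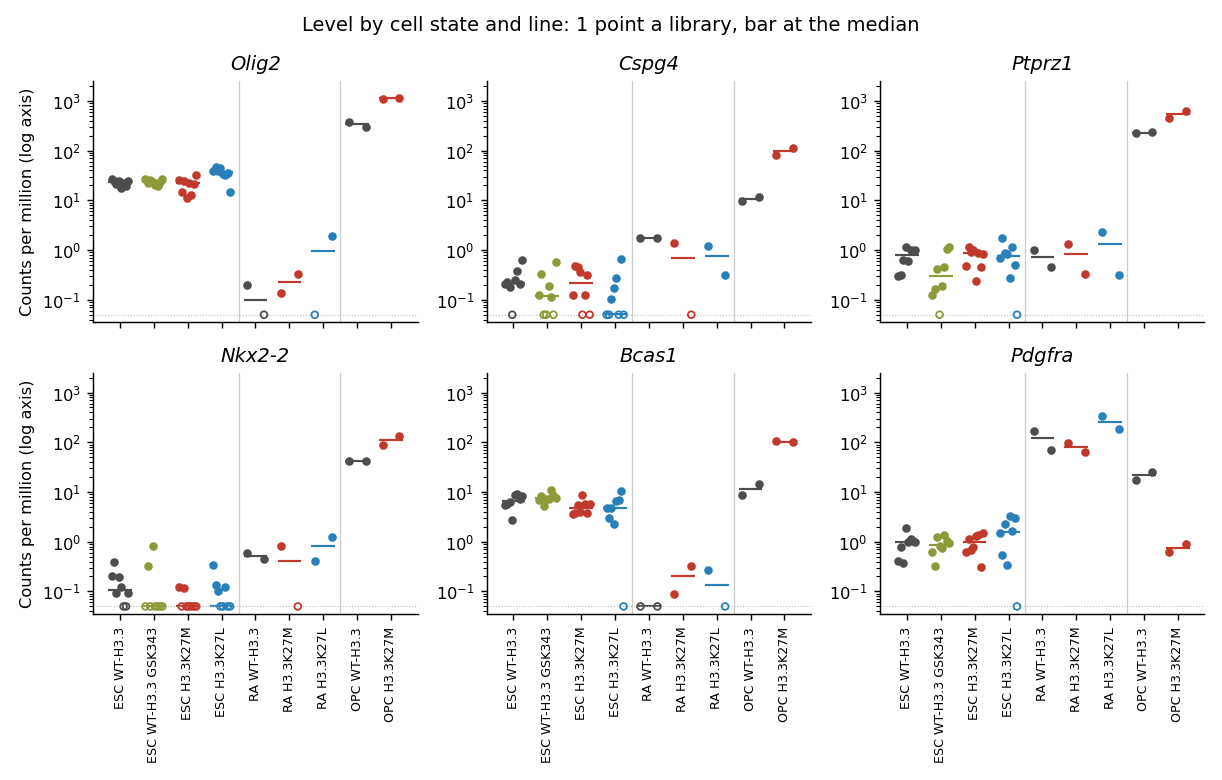
Level of 6 members in every library of ESCs, RA-treated cells and OPCs, in CPM on a log axis, each point a library, the bar the median of a group, and open points at the dotted line libraries at 0. Olig2, Cspg4, Ptprz1 and Nkx2-2 are at their highest in OPCs, and Pdgfra in RA-treated cells, at 62.3 to 334 CPM.

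RA-treated cells, which saw RA without the hedgehog agonist, held little of any member but Pdgfra. Pdgfra was at 170.3 and 70.8 CPM in WT-H3.3, 98.2 and 62.3 CPM in H3.3K27M and 334 and 181 CPM in H3.3K27L cells at 24 and 72 h of Dox, the highest levels of the series. The other 8 members had at most 40 counts in any RA library, and Sox10 had counts only at 24 h, 8 in WT-H3.3, 40 in H3.3K27M and 6 in H3.3K27L cells. Cspg4 had at most 31 counts, Ptprz1 29, Nkx2-2 18, Olig1 10, Olig2 6, Bcas1 2 and Gpr17 1. Only Pdgfra passed the filter on low counts in the RA table.

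Pdgfra in RA-treated cells did not pass the test in H3.3K27M against WT-H3.3 (log2 fold change -0.60, SE 0.52, adjusted p = 1.0), where 0.0% of genes were called and an unadjusted p under 0.05 was found for 14. Pooled over both Dox times, the libraries of these lines overlapped. Within each Dox time, though, H3.3K27M lay below WT-H3.3, at 98.2 against 170.3 CPM (24 h) and 62.3 against 70.8 CPM (72 h). With Dox time as a block, Pdgfra was still not called between these lines, where 2 genes were called in all. In H3.3K27L cells it was above both other lines at each Dox time, but not called against WT-H3.3 (1.09, SE 0.52, adjusted p = 1.0, with 0.0% of genes called). It was called with Dox time as a block, since RA libraries of the same Dox time deviate together (adjusted p = 0.00475, with 3.64% of genes called). From 24 to 72 h Pdgfra dropped by 0.72 on the log2 scale in the fit over the 3 lines (SE 0.14, adjusted p = 0.000695), under the 2-fold threshold, while 42.9% of genes were called and 69.5% had an adjusted p under 0.05 at any fold. Primitive endoderm genes summed to 5284 to 7951 CPM in WT-H3.3, 2988 to 3515 CPM in H3.3K27M and 11866 to 17087 CPM in H3.3K27L cells, the same order of lines as Pdgfra, and their part in it was not tested.

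Set against RA-treated cells, WT-H3.3 OPCs had 6 members higher and 1 lower of 8 tested, where 36.1% of genes were called and 22.1% were lower. The 7 other than Pdgfra did not pass the filter in the RA table, so this count too is a description. The lower one was Pdgfra (-2.55, SE 0.47, adjusted p = 0.000929), and Sox10 was not called (1.52, SE 1.09, adjusted p = 0.28). From ESCs to RA-treated WT-H3.3 cells, where 35.7% of genes were called and 19.7% were higher, Pdgfra was higher (6.79, SE 0.44). Cspg4 (2.18, SE 0.74, adjusted p = 0.0295) and Nkx2-2 (3.08, SE 1.12, adjusted p = 0.0451) were called higher too, but they did not pass the filter in the RA or the ESC table and rest on 13 and 4 counts over 2 WT-H3.3 RA libraries, against 15 and 2 counts over 4 WT-H3.3 ESC libraries. With 1 of these 6 libraries left out, the call was lost 4 times for Cspg4 (adjusted p from 0.0572 to 0.13) and 5 times for Nkx2-2 (from 0.0524 to 0.257), so no direction is read from either. Olig1, Olig2 and Bcas1 were lower, with 3, 1 and 0 counts over both WT-H3.3 RA libraries against 469, 881 and 341 counts over the 4 WT-H3.3 ESC libraries. The Olig genes and Bcas1 thus went down in RA-treated cells and the Olig genes up in OPCs, from the same ESC level.

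In undifferentiated ESCs, Pdgfra, Olig1, Olig2 and Bcas1 passed the filter on low counts, and the other 5 members had mean levels under 1 CPM in each group. Olig2 ran from 18.0 to 26.5 CPM (median 23.4) in WT-H3.3, from 11.1 to 32.9 CPM (median 21.8) in H3.3K27M, from 14.6 to 47.0 CPM (median 36.5) in H3.3K27L and from 19.0 to 27.4 CPM (median 23.6) in GSK343-treated cells (n = 8 each). Olig1 had medians of 11.2, 12.2, 13.1 and 10.8 CPM and Bcas1 of 6.71, 4.71, 4.78 and 7.41 CPM in the same order. Pdgfra had medians of 0.994, 0.969, 1.58 and 0.876 CPM.

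Between H3.3K27M and WT-H3.3 ESCs, 0 of the 4 were called (0.0143% of 14012 genes, 2 genes, or 23 genes and 0 members with the replicate number as a block), with log2 fold changes of -0.0019 (SE 0.41) for Pdgfra, 0.15 (SE 0.14) for Olig1, -0.15 (SE 0.16) for Olig2 and -0.38 (SE 0.19) for Bcas1. All 4 differences were smaller than 2-fold, so the rises of Olig1, Olig2 and Bcas1 in OPCs were not seen in ESCs. Pdgfra had medians of 0.994 CPM in WT-H3.3 and 0.969 CPM in H3.3K27M ESCs. A fall like that in OPCs could hardly show from so low a level. In H3.3K27L ESCs Olig2 was higher than in WT-H3.3 (0.72, SE 0.16, adjusted p = 0.00652), again under 2-fold, where 8.14% of genes had an adjusted p under 0.05 at any fold and 3.43% were called. Its 35.6 ± 10.03 CPM (SD, n = 8) became 38.6 ± 5.79 CPM (SD, n = 7) without the library of 68378 counts. This difference was lost without the H3.3K27L library of 72 h, replicate 1 (0.40, adjusted p = 0.78). Pdgfra (0.92, SE 0.38, adjusted p = 0.153) was not called, and was called when either replicate 2 library of 8 h, of WT-H3.3 (1.32, adjusted p = 0.032) or of H3.3K27L (1.10, adjusted p = 0.048), was left out. It turned to -0.97 (adjusted p = 0.95) without the H3.3K27L library of 72 h, replicate 1, which leaves that time point to the library of 68378 counts, where Pdgfra was at 0. With GSK343, 0 members were called (0.0% of genes, with 678 at an unadjusted p under 0.05), and the 4 log2 fold changes lay between -0.07 and 0.26.

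Whether the effect of the line, H3.3K27M against WT-H3.3, differs between cell states was tested directly, as the difference of the line effects. Between OPCs and ESCs it was called for 5 members, where 7.44% of 15740 genes were called. They were Pdgfra (-4.92, SE 0.72, adjusted p = 0.00101), Cspg4 (4.87, SE 1.03, adjusted p = 0.0099), Bcas1 (3.61, SE 0.48, adjusted p = 0.000645), Olig1 (1.83, SE 0.48, adjusted p = 0.0306) and Olig2 (1.66, SE 0.43, adjusted p = 0.0289). Cspg4 did not pass the filter on low counts in the ESC table. The Cspg4 value rests on 3 counts over 4 H3.3K27M ESC libraries and is given as a description. Ptprz1 (1.81, SE 0.54, adjusted p = 0.0577) just missed the threshold. Leaving out any 1 OPC library ended the calls of Olig1 and Olig2 (adjusted p from 0.0944 to 0.17), as did 4 single ESC libraries for each gene (from 0.0503 to 0.0667). The Cspg4 call was lost without the WT-H3.3 OPC library of 24 h (adjusted p = 0.0525) or the H3.3K27M OPC library of 72 h (0.0508). The calls of Pdgfra and Bcas1 were kept in each of these fits.

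Between OPCs and RA-treated cells the difference was called for Pdgfra (-4.20, SE 0.73, adjusted p = 0.00495) and Cspg4 (4.01, SE 0.97, adjusted p = 0.0296), where 4.5% of genes were called. Cspg4 did not pass the filter on low counts in the RA table. Its RA side rests on 13 counts over 2 WT-H3.3 libraries and 31 over 2 H3.3K27M libraries, so the Cspg4 value is given as a description. The Cspg4 call was lost without any single OPC library or the WT-H3.3 RA library of 24 h (adjusted p from 0.0763 to 0.128), and the Pdgfra call was kept in each of these fits. The fall of Pdgfra in H3.3K27M cells was thus larger in OPCs than in either other state. In ESCs, however, Pdgfra was so low in both lines that a fall could hardly show.

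**Figure D5:**
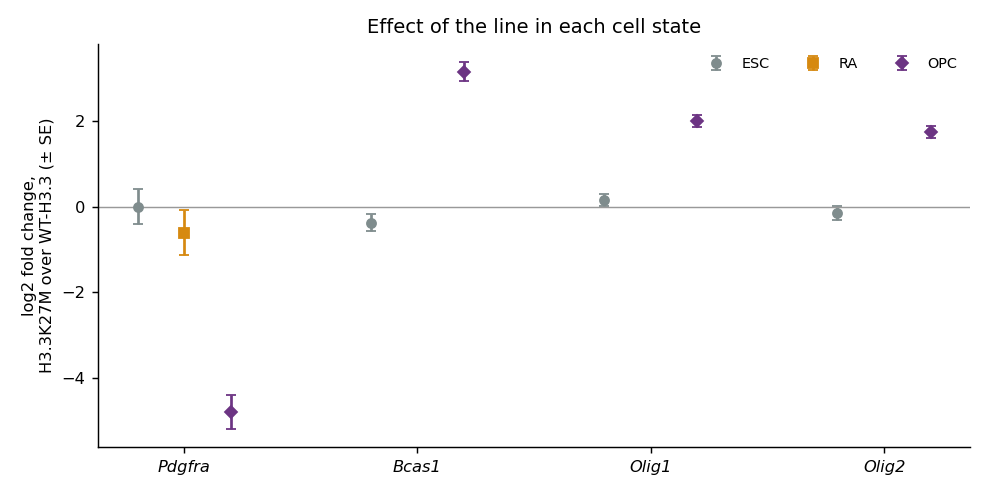
Log2 fold change of H3.3K27M over WT-H3.3 cells for the 4 members tested in ESCs, in ESCs, RA-treated cells (Pdgfra alone) and OPCs, each from the fit of its own table, with bars of 1 SE. In ESCs the 4 values lie between -0.38 and 0.15, and in OPCs Pdgfra lies at -4.79 and the other 3 between 1.73 and 3.15.

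The genes whose level followed Olig2 and Pdgfra most closely over all 42 libraries were listed among 15456 genes, as a description of libraries that share cell state and table. For Olig2 they were Olig1 (Pearson r of log2 CPM 0.934), Gstm1 (0.933), a glutathione transferase, and Aldoc (0.929), an aldolase of astrocytes. Bcas1 was 16th (0.868). For Pdgfra they were Flt1 (0.972), a VEGF receptor, Hkdc1 (0.970), a hexokinase-like gene, and Tmprss2 (0.961), a transmembrane protease. Olig2 and Pdgfra themselves had an r of -0.615. By ranks the nearest genes were others, Ccnd1 for Olig2 and Dach2 for Pdgfra, and Olig1 had a Spearman rho of 0.620 with Olig2.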

How the data were processed

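RNA-seq gene counts of 42 libraries were analysed. Per the labels and the methods, the authors aligned the reads with STAR 2.7.1 to mm9 and deposited counts of reads on each gene, not normalized, in a table each for OPCs, RA-treated cells and ESCs. The counting tool and annotation are not given in the sources used here. QuantSeq 3′ and KAPA kits were used, and which library had which kit is not stated. Genes of chromosome 8 (2532 genes, 5.85% of counts) were left out, as in the authors' analysis, because a duplication was possible in the clones. Of 55471 genes, 32589 were matched to the NCBIM37 annotation (98.2% of counts), and no 2 libraries were copies.

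Differential expression was tested on the counts with edgeR 4.0.16 (TMM scaling, filterByExpr, quasi-likelihood F test, R 4.3.3), with a mean for each line in OPCs and RA-treated cells, for each group and Dox time in ESCs, and for each line and cell state in a fit of 16 libraries (24 and 72 h, WT-H3.3 and H3.3K27M). The Benjamini-Hochberg adjustment ran over all genes tested, and genes under 0.05 that changed over 2-fold (above 2 or below 0.5) were called. Ratios of summed counts carry exact 95% intervals, which cover counting error only. Correlations used log2(CPM + 0.5) where a gene's mean reached 1 CPM in a cell state. Alternatives changed the tool (DESeq2 1.42.0), scaling, filter, fold threshold, libraries and blocks. The scripts were tested on simulated data. Python 3.11.15, pandas 2.3.3, NumPy 2.4.6, SciPy 1.17.1 and Matplotlib 3.10.9 were used.

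The members, the gene lists, the tests and the alternatives were chosen with earlier results of these data known. Named were all members, up to 3 called genes of the lowest adjusted p for each list, and the 3 genes nearest to Olig2 and to Pdgfra. Pou5f1, Mag and Tagln were named after their values were seen. To see whether same-numbered libraries go together, the change from replicate 1 to 2 was correlated between lines. In ESCs r was 0.41 to 0.58 for H3.3K27M with WT-H3.3 at each of 4 time points, so these are paired. For H3.3K27L it was -0.39, -0.59 and -0.41 at 4, 8 and 24 h and 0.12 at 72 h. For GSK343 it ran from -0.16 at 24 h to 0.62 at 72 h. The reason for the negative values was not tested. Between RA lines the change from 24 to 72 h correlated at 0.90 to 0.92, and between OPC lines at 0.157.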

Additional observations from a re-analysis of the deposited data

Results flagged for a closer look

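The line effect, the log2 difference of H3.3K27M from WT-H3.3 cells, differed between cell states in edgeR's test of the difference itself. Mutation, clone and culture cannot be told apart in a line effect. Between OPCs and ESCs the difference was -4.92 for Pdgfra, 4.87 for Cspg4, 3.61 for Bcas1, 1.83 for Olig1 and 1.66 for Olig2. Between OPCs and RA-treated cells it was -4.20 for Pdgfra and 4.01 for Cspg4. Cspg4 did not pass the filter on low counts in the ESC or the RA table. The Cspg4 value against ESCs rests on 3 counts over 4 H3.3K27M libraries, so its size depends on how the fit treats low counts.

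In ESCs, the highest or lowest of the 8 libraries of a group stood apart from the rest by Dixon's criterion in 3 of 16 groups tested (4 genes in 4 groups), where chance alone flags about 1 in 20. Olig1 at 0 CPM and Olig2 at 14.6 CPM were both the lowest values of their H3.3K27L groups and came from the same library, that of 72 h, replicate 2, which held 68378 counts. Bcas1 at 8.59 CPM was the highest value of the H3.3K27M group, in replicate 1 of 24 h.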

How the results depend on the processing

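Of 8 members called between the OPC lines, 6 to 9 were called under the alternatives and 7 to 8 with 1 library left out, where the spread comes from the other line alone and the lone library is assumed to vary like it. The 6 came from the fit of 16 libraries, without Nkx2-2 and Sox10, and from a minimum of 10 counts in every library, which left 6 members to test. The 9 came from no filter on low counts, which added Gpr17. For RA-treated cells the count of 0 became 1, Pdgfra, with Dox time as a block for H3.3K27L, and 1 for the Dox times with no fold threshold or no filter. For H3.3K27L ESCs it became 1 with no fold threshold (Olig2), and was 0 to 1 with 1 library left out. For the difference of line effects it was 1 to 2 of 2 against RA-treated cells and 2 to 5 of 5 against ESCs with 1 library left out, and for WT-H3.3 RA-treated cells against ESCs 4 to 5 of 6. Pdgfra in RA-treated cells (H3.3K27M over WT-H3.3, log2 -0.60) ran from -1.04 to 0.0057 with 1 library left out, turning without the 24 h library of WT-H3.3, and in ESCs (H3.3K27L over WT-H3.3, 0.92) from -0.97 to 1.32, turning without the H3.3K27L library of 72 h, replicate 1. No other member value that was traced turned, and the cause of these changes was not tested, except where fewer genes or libraries entered the fit.

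Counts over all genes moved more than the members did. They ran from 2170 to 6423 between the OPC lines (3482 as reported), from 0 to 332 between OPC Dox times (23), from 3468 to 8496 between RA Dox times (5242), from 0 to 152 for H3.3K27M (2), from 0 to 1141 for H3.3K27L (481) and from 0 to 26 for GSK343 (0) in ESCs, from 4492 to 12435 for WT-H3.3 OPCs against ESCs (10052), from 4296 to 11408 for the same in H3.3K27M (9692), from 2430 to 8484 for OPCs against RA-treated cells (5679), from 2256 to 6496 for RA-treated cells against ESCs (5623), and from 321 to 2208 (709) and from 694 to 2618 (1171) for the differences of line effects. In RA-treated cells, up to 445 genes were called for H3.3K27L and 2 for H3.3K27M, against 0 as reported.

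With the replicate number as a block, 8 members were called between the OPC lines, and 0 between H3.3K27M or H3.3K27L and WT-H3.3 ESCs or with GSK343, while the genes called in all were 3507, 23, 546 and 0. The pairing changed no other call of a member. Replicate numbers went together at every time point only for the H3.3K27M and WT-H3.3 ESCs. Without TMM scaling the OPC levels of the members were 10.6% to 13.2% lower in each line. The minimum of 10 counts in every library left no member to test in ESCs or in the fit of 16 libraries, and no OPC library could be left out in the comparison of Dox times. Gpr17, Sox10 and Pdgfra in H3.3K27M OPCs, and all members but Pdgfra in RA-treated cells, are limited by depth.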
